A study of Mus musculus with 8 samples.

Results

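CD27, its ligand CD70 and 8 related receptors that mouse T cells carry were followed through regulatory T cells (Tregs) cultured with or without FcCD70. The genes were Cd27, Cd70, Tnfrsf1b (TNFR2), Tnfrsf4 (OX40), Tnfrsf8 (CD30), Tnfrsf9 (4-1BB), Tnfrsf14 (HVEM), Tnfrsf18 (GITR), Tnfrsf25 (DR3) and Fas. They were chosen by gene name and not by a cut on any measured value, though with earlier results of these data known. All 10 had a row among the 19703 genes of the table, and 9 passed the filter for testing, a mean normalized count of at least 10, which 11083 genes met. Cd70 did not pass it.

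Wild-type (WT, per the titles) Tregs sorted from mice of the Foxp3-GFP strain, in which a fluorescent protein reports the Treg transcription factor FOXP3, were activated with beads coated with antibodies to CD3 and CD28. IL6, IL23 and IL1B, the cytokine mix of a Th17-polarizing culture, were given to every sample, and the treated samples also received FcCD70, by its name an Fc form of CD70. RNA was sequenced from cells purified on day 6, in 4 untreated samples and 4 with FcCD70. The age and sex of the mice, the dose of FcCD70 and a control Fc protein are not described in the labels used here. Whether each sample had its own mouse is not stated either, so p-values cover the scatter of these samples alone, and that scatter may be technical.

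The sample titles and the treatment field of the labels gave opposite groups for all 8 samples. Groups follow the titles here, as the column names do, and every direction given here turns round if the titles are wrong. The table had columns for untreated 1 to 4 and FcCD70 1 to 3, with 18159685 to 23527899 reads assigned to genes per library. FcCD70 4 had no column, and its values were rebuilt from the authors' mean over 8 libraries and kept apart. FcCD70 2 stood furthest from the others, with a mean absolute log2 deviation of 0.316 from the median library, against 0.138 to 0.252 in the other 6. Foxp3 stood at 2788 normalized counts in FcCD70 2 and at 4811 to 6585 in the other 6 libraries. All 8 of 8 Treg and T cell markers had a mean of at least 10, and their summed level was 87853 to 93846 untreated and 85331 to 89739 with FcCD70. Of the markers of other cells, 4 of 6 B cell genes passed that level (summed 157 to 275 untreated and 166 to 238 with FcCD70), 1 of 5 CD8 T and NK cell genes did (123 to 189 and 155 to 201), and 0 of 3 myeloid genes with a row did (0 to 3.03 and 0 to 4.49). The CD8 T cell gene that passed was Cd8b1, at 110 to 195 normalized counts, and Cd8a stood at 0 to 13.1. Of the NK cell genes, Ncr1 stood at 0 in every library, Klrb1c at 0 to 7.94 and Klre1 at 0 to 5.05.

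CD27 is a receptor of the tumour necrosis factor receptor superfamily on T cells, and CD70 is its ligand, usually displayed by activated antigen-presenting cells and lymphocytes. Binding clusters the receptor, its tail recruits TRAF adaptors, and these start NF-kB and kinase signals that favour survival and division. OX40, 4-1BB, GITR, CD30, HVEM and TNFR2 signal through TRAF adaptors in the same way, while FAS and DR3 carry a death domain, and FAS can start apoptosis. Tregs are known for high GITR, OX40 and TNFR2.

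Cd27 (ENSMUSG00000030336, GRCm38 chromosome 6, 125232622 to 125237010, minus strand) was the most abundant of the 10 genes and its level was nearly the same with and without FcCD70. Its normalized counts, the authors' read counts divided by 1 size factor per library, were 6716, 5988, 6688 and 6516 in untreated libraries 1 to 4 and 6936, 5808 and 6446 in FcCD70 libraries 1 to 3. The groups overlapped over nearly their whole range, and the lowest value was that of FcCD70 2. The means were 6477 ± 338 (SD, n = 4) and 6397 ± 566 (SD, n = 3). By limma, with the replicate number as a block, the FcCD70 libraries differed from the untreated ones by -0.02 on the log2 scale (SE 0.12, 95% interval -0.29 to 0.26, adjusted p = 0.9998). The same-numbered pairs differed by 0.05, -0.04 and -0.05 on the log2 scale. Untreated 4 has no partner among the columns, so with the block the limma fold changes rest on the pairs numbered 1 to 3. The rebuilt FcCD70 4 stood at 7059. In bulk RNA, fewer cells of a type and less RNA per cell cannot be told apart. Cd27 varied little between libraries: the SD of its log2 value over the 7 was 0.09, and 7.96% of the tested genes had a lower one. The tested genes reach down to a mean of 10, while Cd27 had 5171 to 7486 reads per library. The comparison was not matched for abundance. Cd27 shares 129 exon bases with the microRNA gene Mir8113 and overlaps Vamp1 on the opposite strand outside exons.

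Cd70 itself (ENSMUSG00000019489, chromosome 17, 57145997 to 57149777, minus strand) was close to absent from the libraries. It had 0 to 3 reads per library and 6 in all 7, or 0, 3.03, 0.971 and 0.870 normalized counts in untreated 1 to 4 and 0, 0 and 0.882 in FcCD70 1 to 3. Every library was at or under the limit that a count of 0 allows, 3 reads, or 2.61 to 3.37 normalized counts by library, so no fold change was taken. That limit covers counting error alone. The added FcCD70 is protein and would not give reads of the Cd70 gene.

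**Figure D1:**
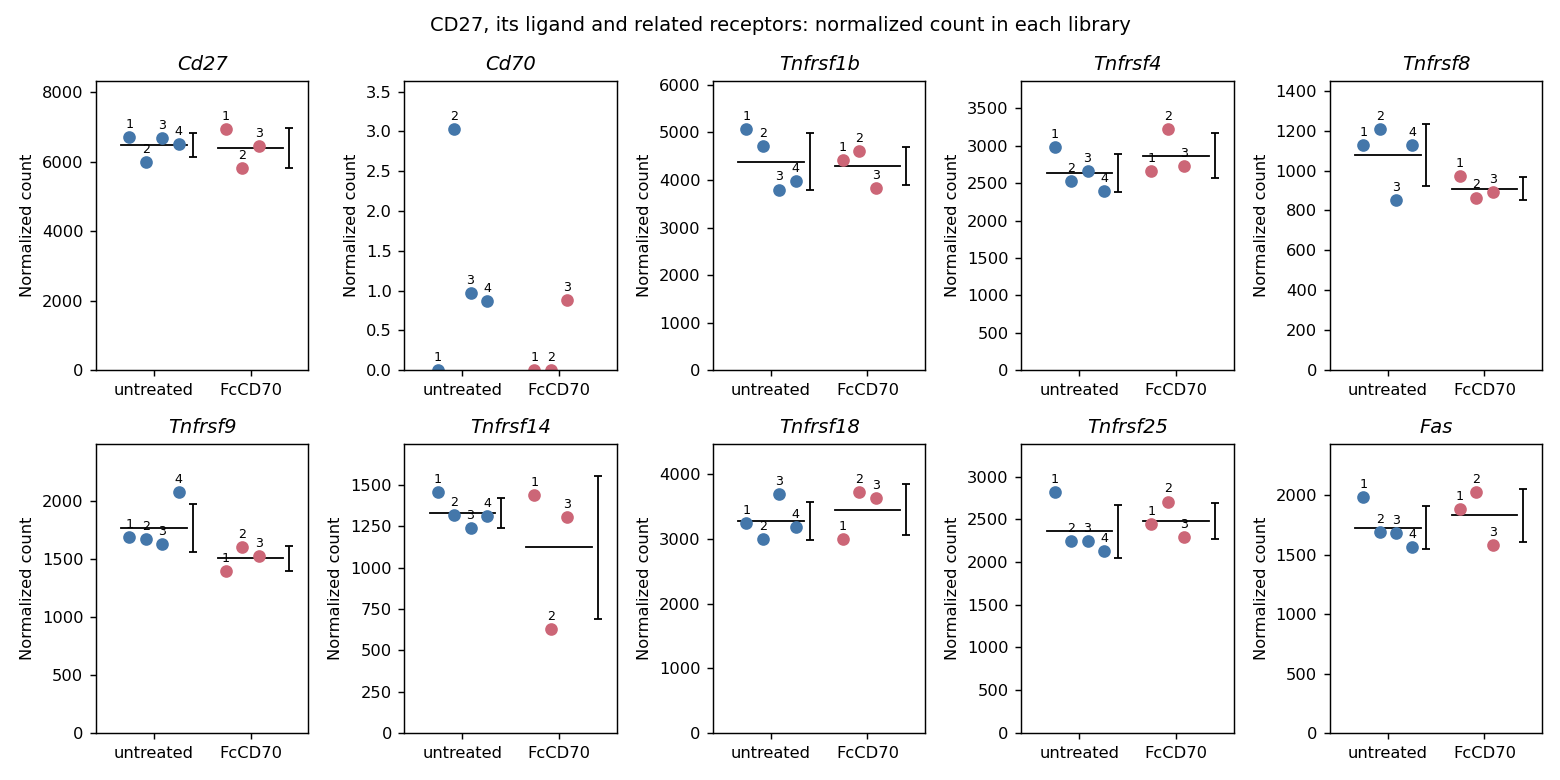
Normalized count (vertical axis, from 0, with its own scale for each gene) of the 10 genes in untreated and FcCD70 libraries. Each point is a library with its number, lines are group means and bars their SD (n = 4 and n = 3; neither is drawn for Cd70, at 0 to 3 reads per library); the point of FcCD70 2 lies far below the other 6 for Tnfrsf14, at 629 against 1241 to 1458.

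Promoter sequence is shown for 3 of the receptors: Cd27, the receptor that the added ligand binds, and Tnfrsf1b and Fas, the members whose level was higher in all libraries numbered 1 and 2 than in those numbered 3 and 4. The windows come from RefSeq (GRCm38.p6), which held one for 9 of the 10 genes, and only bases upstream of the start site and outside annotated transcripts are printed. Capitals mark a GC box (GGGCGG or its complement CCGCCC), bound by SP-family factors, or an AP-1 motif (TGANTCA), bound by FOS and JUN proteins.
Cd27 (chr6:125237137-125237277, minus strand): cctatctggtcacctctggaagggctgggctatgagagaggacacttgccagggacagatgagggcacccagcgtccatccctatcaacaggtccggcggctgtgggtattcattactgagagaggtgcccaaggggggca
Tnfrsf1b (chr4:145246871-145247120, minus strand): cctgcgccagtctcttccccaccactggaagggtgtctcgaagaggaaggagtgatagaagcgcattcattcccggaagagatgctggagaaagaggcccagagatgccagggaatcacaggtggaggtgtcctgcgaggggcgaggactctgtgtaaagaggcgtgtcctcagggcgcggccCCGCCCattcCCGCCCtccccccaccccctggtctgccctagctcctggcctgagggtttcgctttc
Fas (chr19:34290409-34290646, plus strand): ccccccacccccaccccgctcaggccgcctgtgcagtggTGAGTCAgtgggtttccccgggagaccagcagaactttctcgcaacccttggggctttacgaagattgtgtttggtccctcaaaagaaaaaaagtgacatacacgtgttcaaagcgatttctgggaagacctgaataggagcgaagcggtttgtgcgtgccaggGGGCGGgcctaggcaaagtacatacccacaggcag
Tnfrsf1b held a pair of GC boxes, whose first bases lay 67 and 57 bases before its start site. Fas held an AP-1 motif 211 bases and a GC box 47 bases before its start, and Cd27 held neither motif. Over the 250 bases before the start, 9 motifs were searched on both strands. The 9 receptors with a window held 11 windows, and all 32851 windows were searched beside them. Members are counted as receptors here and the percentages are of windows, so a receptor with more than 1 window had more room for a match. The GC box was in 4 receptors (Fas, Tnfrsf1b, Tnfrsf8 and Tnfrsf9) and in 32.7% of all windows. The AP-1 motif was in 3 (Fas, Tnfrsf8 and Tnfrsf9) and in 6.75%. Of 3 nested forms of the NF-kB motif, GGGA followed after 2 free bases by TTCC was in 0 receptors (1.21% of windows), GGG followed after 3 free bases by TTCC in Tnfrsf25 and Tnfrsf9 (4.65%), and GGG followed after 5 free bases by CC in 7 receptors (45.8%). The ETS motif GGAAGT was in Tnfrsf14 and Tnfrsf4 (19.7%), the CCAAT box in Tnfrsf9 (33.8%), the RUNX motif TGTGGT in Tnfrsf25 (14.0%) and TATAAA in 0 receptors (12.4%). A match describes these letters alone.

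Compared per kb of exon, the scale on which different genes can be set side by side, Cd27 led the 10 genes and Tnfrsf8 was the lowest receptor. The mean over 7 libraries was 2767 normalized counts per kb for Cd27 (2495 to 2979), rank 217 to 327 among 11076 genes with an exon length. GITR followed at 2200.1 (1962 to 2444, rank 307 to 364) and OX40 at 2005 (1750 to 2359, rank 324 to 451). Cd27 was above Tnfrsf18 without overlap, whereas Tnfrsf18 and Tnfrsf4 overlapped, Tnfrsf18 being the higher in 6 of 7 libraries. A middle group held Tnfrsf1b at 1139 (995 to 1327), Tnfrsf25 at 1059 (934 to 1239), Tnfrsf14 at 864 (437 to 1014) and Fas at 860.3 (759.8 to 984), and each neighbouring pair among them overlapped. Tnfrsf1b exceeded Tnfrsf25, and Tnfrsf25 exceeded Tnfrsf14, in 7 of 7 libraries, while Tnfrsf14 exceeded Fas in 6 of 7. Tnfrsf9 at 609 (512 to 764) overlapped Fas, and Tnfrsf8 at 291 (246 to 349, rank 3146 to 4359) lay below Tnfrsf9 in every library without overlap. Cd70 averaged 0.976 per kb. By their mean rank over the 7 libraries, 5 of the 9 tested receptors were in the top 10% of ranked genes, that is within rank 1107. When counts were not divided by length, 2 were. Tnfrsf14 was outside at a mean rank of 1244, but its median rank was 1067.

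The 4 receptors that act through TRAF adaptors and are known for costimulation of T cells (OX40, GITR, 4-1BB and CD30) did not pass the test between groups. Tnfrsf4 encodes OX40, which prolongs the survival of activated T cells. It stood at 2977, 2527, 2658 and 2388 normalized counts in untreated 1 to 4 and at 2656, 3220 and 2731 in FcCD70 1 to 3. The groups overlapped and FcCD70 2 was the highest of the 7. The means were 2637 ± 251 (SD, n = 4) and 2869 ± 307 (SD, n = 3). The log2 fold change of the blocked fit was 0.07 (SE 0.14, 95% interval -0.23 to 0.38), and 0.12 with no block. Without the pair numbered 2 the blocked fit gave -0.06. Tnfrsf18 encodes GITR, whose signal lowers suppression by Tregs. Its values were 3249, 2990, 3685 and 3188 untreated and 2996, 3725 and 3637 with FcCD70. FcCD70 2 was again the highest, FcCD70 1 lay within the untreated range, and the groups overlapped. The log2 fold change was 0.06 (SE 0.13, 95% interval -0.24 to 0.36), and -0.07 without the pair numbered 2. Tnfrsf18 shares 414 exon bases with the antisense gene Gm16008, and the strand setting of the counting is not given in the sources used here.

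Tnfrsf9 was the member whose 3 FcCD70 libraries all lay below the 4 untreated ones. It encodes 4-1BB, which appears on activated T cells and marks recently stimulated Tregs. Its normalized counts were 1690, 1674, 1630 and 2079 in untreated 1 to 4 and 1393, 1605 and 1523 in FcCD70 1 to 3. The gap between the groups was small, from 1605 to 1630, and the highest value, that of untreated 4, stood apart from the other untreated libraries. Means were 1769 ± 209 (SD, n = 4) and 1507 ± 107 (SD, n = 3), and the log2 fold change was -0.15 (SE 0.12, 95% interval -0.42 to 0.13, adjusted p = 0.9998). It was lower with FcCD70 in 3 of 3 pairs, by log2 differences of -0.28, -0.06 and -0.10. The rebuilt FcCD70 4 stood at 1857 and the groups overlap once it is counted, although it too was below untreated 4, at a difference of -0.16. Among all tested genes the groups did not overlap, with FcCD70 lower, for 1.18%, and 9.61% were lower in 3 of 3 pairs. In the other direction, 0 of 9 members lay wholly above the untreated libraries, beside 1.34% of tested genes, and 0 of 9 were higher in 3 of 3 pairs, beside 9.03%. Tnfrsf8 encodes CD30, a receptor of activated lymphocytes, and stood at 1126, 1207, 852 and 1128 untreated and at 974, 865 and 892 with FcCD70. The groups overlapped through untreated 3, the lowest of the 7. The means were 1078 ± 156 (SD, n = 4) and 910.0 ± 56.6 (SD, n = 3) and the log2 fold change was -0.21 (SE 0.15, 95% interval -0.54 to 0.12). It was -0.07 without the pair numbered 2. The rebuilt FcCD70 4 stood at 840.5, at a log2 difference of -0.42 from untreated 4. With that library added, limma gave Tnfrsf8 a log2 fold change of -0.26 (adjusted p = 0.977). In the authors' deposited table, from 8 libraries, Tnfrsf8 had the value -0.26 after its sign was turned, with an unadjusted p of 0.0590 and an adjusted p of 0.99999.

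Tnfrsf14 and Tnfrsf1b are receptors whose ligands also bind other members of the family. Tnfrsf14 encodes HVEM, which binds LIGHT and also the inhibitory receptor BTLA. Its normalized counts were 1458, 1318, 1241 and 1310 in untreated 1 to 4 and 1437, 629 and 1306 in FcCD70 1 to 3. FcCD70 2 was far below the other 6 libraries, which spanned 1241 to 1458, and the other FcCD70 libraries lay inside the untreated range. The means were 1332 ± 91.0 (SD, n = 4) and 1124 ± 433 (SD, n = 3), and the log2 fold change was -0.34 (SE 0.21, 95% interval -0.81 to 0.13). That difference rests on FcCD70 2: it was 0.03 without the pair numbered 2, and the pairs numbered 1 and 3 differed by -0.02 and 0.07 against -1.07. Of the tested genes, 3.75% were lower in FcCD70 2 than the median of the other 6 by a log2 value over 1, and Tnfrsf14, at -1.06, was the member among them. Foxp3 was also lowest in that library, and its part in this value was not tested. Tnfrsf1b encodes TNFR2, which supports Treg expansion when TNF binds it. It stood at 5066, 4704, 3799 and 3979 untreated and at 4428, 4617 and 3840 with FcCD70, so the groups overlapped. The log2 fold change was -0.07 (SE 0.12, 95% interval -0.34 to 0.20).

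The receptors with a death domain, DR3 and FAS, gave differences near 0. Tnfrsf25 encodes DR3, whose ligand TL1A expands Tregs. Its values were 2820.3, 2247, 2251 and 2126 untreated and 2440.2, 2708 and 2288 with FcCD70. The groups overlapped, with untreated 1 the highest, and the log2 fold change was 0.03 (SE 0.13, 95% interval -0.27 to 0.33). Fas stood at 1983, 1690.2, 1680.0 and 1567 untreated and at 1882, 2029.7 and 1586 with FcCD70. FcCD70 2 was the highest and untreated 4 the lowest, and the groups overlapped. The log2 fold change was 0.04 (SE 0.13, 95% interval -0.26 to 0.33). Without the pair numbered 2 these values were -0.09 for Tnfrsf25 and -0.08 for Fas.

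Over the 9 tested members, 0 passed an adjusted p of 0.05 in limma and 0 had an unadjusted p under 0.05. The background was 0% of 11083 genes by the first rule and 1.70% by the second, that is 188 genes. The fold changes ran from -0.34 for Tnfrsf14 to 0.07 for Tnfrsf4, with 5 below 0 and 4 above and a median of -0.02, against a median of -0.00351 over all tested genes. Every one of the 9 intervals included 0. The intervals ran from -0.29 to 0.26 for Cd27 and, the widest, from -0.81 to 0.13 for Tnfrsf14. They rest on the same-numbered pairs alone, since untreated 4 has no partner in the blocked fit. Changes within these intervals are not excluded. In the authors' deposited table, from 8 libraries, all 9 had an adjusted p of 0.99999, with fold changes from -0.28 for Tnfrsf14 to 0.06 for Tnfrsf18 and 0.02 for Cd27.

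**Figure D2:**
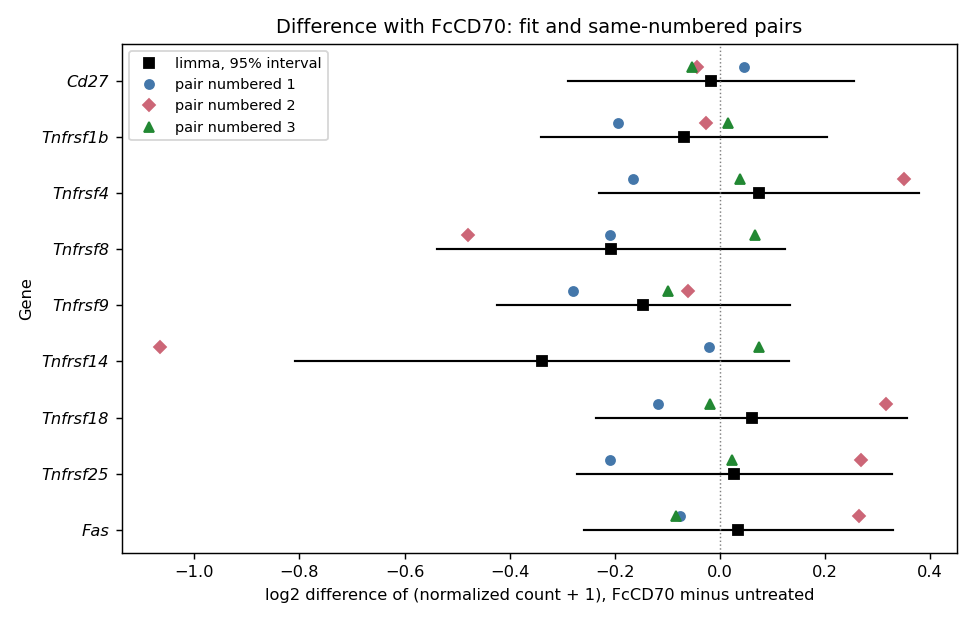
Log2 difference between FcCD70 and untreated libraries, on the log2(normalized count + 1) scale (horizontal axis), for the 9 tested members (vertical axis). Black squares and lines are limma's estimate and 95% interval, coloured symbols the same-numbered pairs; each interval includes 0, and the pair numbered 2 lies at -1.07 for Tnfrsf14 while its other pairs lie at -0.02 and 0.07.

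Values were also read by library number, since the same numbers run through both groups. Tnfrsf1b was the clearest case: its libraries numbered 1 and 2 stood at 4428 to 5066 and those numbered 3 and 4 at 3799 to 3979, whatever the group. Fas also had all libraries numbered 1 and 2 above those numbered 3 and 4, but by the narrow margin of 1690.2 against 1680.0 within the untreated group. Of the tested genes, 11.1% had that order and 11.1% the opposite one, and 2 of 9 members and 0 of 9 had them. The split of numbers was chosen with these data in view. In limma's F-test of the number terms, 0 of 9 members and 0.135% of the tested genes, or 15, had an adjusted p under 0.05, and the lowest of a member was 0.776, for Tnfrsf14. Without FcCD70 2, 16.5% of the tested genes passed the F-test and 1 member did, Tnfrsf1b, at an adjusted p of 0.00368. With the rebuilt FcCD70 4 added as well, a setting added after seeing the data, 22.6% passed and 5 members did (Tnfrsf1b, Tnfrsf9, Fas, Tnfrsf18 and Tnfrsf4). FcCD70 2 was below each of the other 6 libraries for Cd27 and Tnfrsf14, where 28.4% of tested genes were so placed. It was above each of them for Tnfrsf4, Tnfrsf18 and Fas, where 27.3% of tested genes were.

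**Figure D3:**
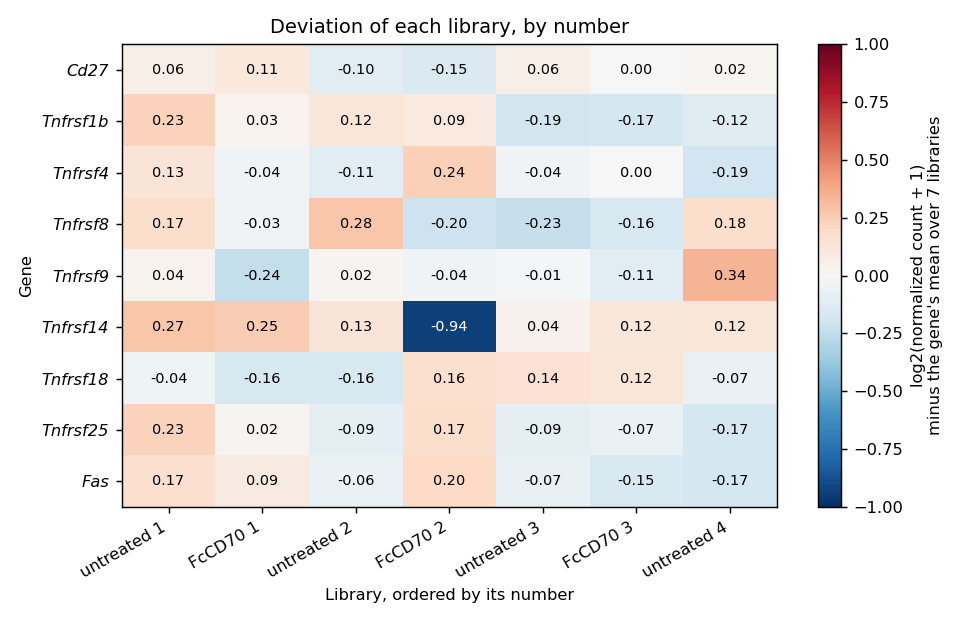
Log2(normalized count + 1) of the 9 tested members (rows) minus each gene's mean over 7 libraries, with libraries (columns) ordered by number and the value printed in each cell. Tnfrsf1b is above its mean in the libraries numbered 1 and 2 (0.03 to 0.23) and below it in those numbered 3 and 4 (-0.19 to -0.12), and the darkest cell is Tnfrsf14 in FcCD70 2, at -0.94.

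Each receptor was set beside the RNA of its own ligand in the same cells, per kb of exon, as a description of these libraries. For most pairs the receptor was far above the ligand. Tnfsf18, the ligand of GITR, had 0 reads in all 7 libraries, and Tnfsf15, the ligand of DR3, averaged 2.14 per kb. Fasl averaged 21.2, Tnfsf4 (OX40 ligand) 47.0, Tnfsf14 (LIGHT) 52.1 and Tnfsf9 (4-1BB ligand) 91.6 per kb, each below its receptor in every library. The ligands of TNFR2 came nearer to it, at 227 for Tnf and 610.3 for Lta, and were also below it in every library. CD30 and its ligand stood the other way round. Tnfsf8, the CD30 ligand, averaged 2163 per kb (1825 to 2451) against 291 (246 to 349) for Tnfrsf8, without overlap. Tnfsf8 stood at 9332, 9280, 8381 and 6948 normalized counts untreated and at 9156, 7130 and 7427 with FcCD70, a log2 fold change of -0.19 (95% interval -0.49 to 0.10) with overlapping groups.

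**Figure D4:**
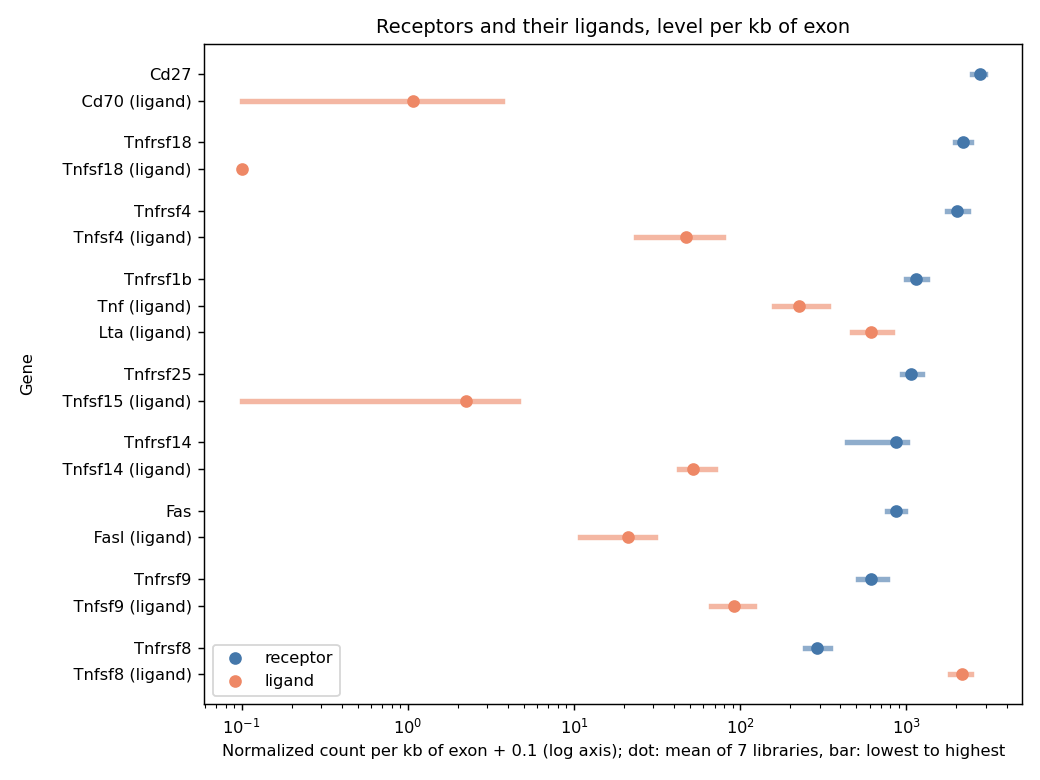
Level per kb of exon plus 0.1 (horizontal log axis) of each receptor (blue) and of its ligands (orange), with dots for the mean of 7 libraries and bars from the lowest to the highest library. Tnfrsf8 is the receptor whose ligand lies above it, at 291 against 2163, and Tnfsf18 sits at the added 0.1 because it had 0 reads.

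Of the 16 ligand genes of the family, all had a row and 12 were tested: 6 fold changes were below 0 and 6 above, the median was 0.00154, and 0 passed. The lowest unadjusted p was that of Ltb, which encodes lymphotoxin beta, at 7693 to 11602 normalized counts and a log2 fold change of 0.26 (95% interval -0.08 to 0.60). Its receptor gene Ltbr stood at 0 to 1.04. Tnfsf12 and Tnfsf13 were listed at 0, but share 731 and 983 exon bases with the readthrough gene Tnfsfm13, and counting could leave out reads that fit both. Of 19 other receptors of the family, 17 had a row and 9 were tested, with 2 fold changes below 0, 7 above, a median of 0.03 and 0 calls. Tnfrsf1a, the other TNF receptor, had the lowest p among them, at a log2 fold change of 0.16.

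The adaptors that CD27 and its relatives recruit did not pass the test either. All 15 adaptor genes were tested, 9 had fold changes below 0 and 6 above, the median was -0.02, and 0 passed. Traf2, which binds the tail of CD27, averaged 1099 ± 48.5 (SD, n = 4) in untreated libraries and 1078 ± 115 (SD, n = 3) in FcCD70 libraries, in normalized counts. Traf5, its partner there, averaged 1074 ± 26.1 (SD, n = 4) and 1037 ± 35.7 (SD, n = 3). Siva1, which encodes a protein that binds the CD27 tail and is linked to apoptosis, had 204, 179.6, 249.6 and 240.2 untreated and 120.1, 349 and 209.9 with FcCD70. FcCD70 1 was its lowest and FcCD70 2 its highest library, and its interval was wide, -0.69 to 0.66 around a log2 fold change of -0.02. Cflar, an inhibitor of FAS-driven caspase activation, had the lowest p of the list, at -0.14.

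Among 12 genes of NF-kB subunits, inhibitors and targets, 0 passed the adjusted threshold, 3 had fold changes below 0 and 9 above, and the median was 0.04. Bcl2l1, which encodes the survival protein BCL-XL, had an unadjusted p under 0.05. It stood at 956, 935, 873 and 923 normalized counts untreated and at 684, 724.5 and 766 with FcCD70, without overlap between the groups. Of all tested genes, 1.18% lay lower with FcCD70 without overlap. The log2 fold change was -0.35 (SE 0.14, 95% interval -0.66 to -0.04, adjusted p = 0.9998), beside 1.70% of tested genes with an unadjusted p under 0.05. Relb, a subunit of the noncanonical NF-kB pathway that TRAF-binding receptors can start, was higher in 3 of 3 pairs, at a log2 fold change of 0.27 (95% interval -0.04 to 0.59). Of all tested genes, 9.03% were higher in 3 of 3 pairs. Relb was named after its value was seen, and a link to CD27 signalling was not tested.

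The genes whose level followed a member most closely were found by the root mean square difference of centred log2 values over the 7 libraries, among 9524 genes. For Cd27 they were Cacul1 at 0.0257, Ears2 at 0.0278 and Ppp2r1a at 0.0304, which, like Cd27, varied little. For Tnfrsf14 they were Nup98 at 0.0580, Arhgef11 at 0.0588 and Birc6 at 0.0591, and each of these was lowest in FcCD70 2: Nup98 at 808 against 1424 to 1724, Arhgef11 at 879.5 against 1632 to 1966, and Birc6 at 5794 against 11303 to 13355. These genes were picked for likeness, so a small spread as in Cd27, or a low FcCD70 2 as in Tnfrsf14, follows from the choice. The libraries share depth and preparation, so likeness here describes these columns.

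On the genome, 7 of the 10 genes lie on chromosome 4 within one stretch, from Tnfrsf1b (start 145213463) to Tnfrsf18 (end 156028895) in GRCm38, with Tnfrsf8, Tnfrsf9, Tnfrsf25, Tnfrsf14 and Tnfrsf4 between them. Chromosome 4 holds 6.12% of the tested genes. Tnfrsf4 (156013843 to 156016612) and Tnfrsf18 (156026164 to 156028895) are near neighbours on the plus strand, and their pair differences had the same sign in the pairs numbered 1 and 2 (-0.16 and 0.35 for Tnfrsf4, -0.12 and 0.32 for Tnfrsf18) and opposite signs in the pair numbered 3 (0.04 and -0.02). Cd27 (chromosome 6), Cd70 (chromosome 17) and Fas (chromosome 19, 34290666 to 34327772) lie elsewhere. The signs in the pairs numbered 1 and 2 were not particular to the neighbours Tnfrsf4 and Tnfrsf18. Tnfrsf25 had -0.21 and 0.27 there, and Fas, on another chromosome, had -0.08 and 0.26. The other tested members did not have these signs. FcCD70 2, the library furthest from the others, was the highest for Tnfrsf4, Tnfrsf18 and Fas.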

How the data were processed

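Poly(A) RNA libraries of sorted mouse Tregs were made with a strand-marking Illumina TruSeq kit, per the labels' protocols. The submitters' processing notes list the build GRCm38.p4 and the tools HTSeq, TopHat2, DESeq2 and SAMtools without roles. For the annotation and for strand in counting, the setting is not given in the sources used here. Per library, the deposited columns hold a signal: the authors' read counts over 1 size factor, as the values show, since 100% of values were whole reads within 0.01. The deposited table also holds the authors' log2 fold changes, a score (the test statistic) and p-values. Its fold changes run from FcCD70 to untreated and were multiplied by -1.

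limma 3.58.1 (R 4.3.3) was fitted to log2(normalized count + 1) of genes with a mean of at least 10, with a trend and with the replicate number as a block, since the name of the deposited table speaks of pairs; p-values were adjusted by Benjamini-Hochberg over 11083 genes, with a threshold of 0.05. Fold changes are on that scale. An F-test of the number terms came from the same fit. edgeR 4.0.16 and DESeq2 1.42.0 on the recovered reads, other scalings, filters and pseudocounts, and left-out libraries were alternatives. Exon lengths and positions came from GENCODE M21 (GRCm38), and promoter windows from RefSeq. The blocked limma fit, its F-test and the edgeR fit were tested on simulated data, and the DESeq2, unblocked and covariate fits were not. In the simulation no library stood apart, and the changes were larger than those fitted for the members. The members and lists were chosen with earlier results of these data known. The text names all 10 members, each receptor's ligand, the adaptors of the CD27 tail, and the gene with the lowest p of each list. The rebuilt FcCD70 4 entered no main fit: its values are printed beside some members, and it entered alternatives, one of which was added after seeing the data.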

Additional observations from a re-analysis of the deposited data

Results flagged for a closer look

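In the 4 untreated libraries, 57 genes of the member and pathway lists were examined for a library far from the others, by the gap of the highest or lowest library to its nearest neighbour as a share of the group's range. It was large in 5 of them, at 0.845 to 0.972 of the range, and chance gives about 1 in 20. The 57 genes share the same 4 libraries and are not independent. Whether 5 exceeds the share from chance was not tested. Tnfrsf9, the 4-1BB receptor, stood at 2079 normalized counts in untreated 4, with a gap of 0.867 of the range, and this library sets part of the difference between the group means reported above. Tnfsf13b, the ligand BAFF, stood at 56.1 in untreated 1 (0.959). The adaptor genes Fadd, at 294 (0.845), and Ripk1, at 1391 (0.848), stood apart in untreated 2. Nfkbia, the NF-kB inhibitor, stood at 4389 in untreated 1 (0.972).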

How the results depend on the processing

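In every alternative run, 0 members passed between FcCD70 and untreated libraries, and the smallest adjusted p of a member was 0.269, for Tnfrsf9. Over all genes, limma called 0 (188 at an unadjusted p under 0.05), edgeR 0 (168) and DESeq2 1 (141). Leaving out replicates or single libraries gave 0 to 19 calls, 19 of them without replicate 2, 6 without replicate 3 and 6 without FcCD70 2 with the numbers as a covariate. With the rebuilt FcCD70 4 added and FcCD70 2 left out it was 5. The cause was not tested. Tnfrsf8 and Tnfrsf9 kept values below 0 in all 21 alternatives, and leaving out replicates or libraries gave -0.34 to -0.07 and -0.27 to -0.08. The sign of 7 members turned in at least 1 alternative. Leaving out replicates or libraries gave -0.08 to 0.048 for Cd27 (0.0013 without replicate 3, 0.048 without FcCD70 2), -0.11 to 0.053 for Tnfrsf1b (0.047 without untreated 1, 0.012 without untreated 2, 0.053 without FcCD70 3), -0.063 to 0.19 for Tnfrsf4, -0.55 to 0.043 for Tnfrsf14, -0.068 to 0.17 for Tnfrsf18, -0.093 to 0.16 for Tnfrsf25 and -0.079 to 0.18 for Fas. The last 5 of these turned without replicate 2, which gave the lowest value for Tnfrsf4, Tnfrsf18, Tnfrsf25 and Fas and 0.026 for Tnfrsf14. The value of Tnfrsf14 without FcCD70 2 was 0.043. With the rebuilt library added, Cd27 was at 0.016. With it added and FcCD70 2 left out, Cd27 was at 0.036, Tnfrsf4 at -0.065, Tnfrsf18 at -0.029, Tnfrsf25 at -0.037 and Fas at -0.075.

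Deviations of same-numbered libraries from their group means had correlations of 0.303, 0.0144 and 0.435 over genes for the numbers 1, 2 and 3. The lowest is that of the pair with FcCD70 2. No correlations of differently numbered libraries are given beside them. These values alone therefore do not decide whether the numbers pair the samples. The block was kept in the fit from the name of the deposited table. With no replicate block 0 genes were called (120 at an unadjusted p under 0.05), and Cd27 stood at -0.02, Tnfrsf9 at -0.23 and Tnfrsf14 at -0.33. The count of genes that differed between numbers, 15, was 0 with edgeR, 0 with no filter, 29 scaled by total reads, 2 with TMM, 117 with the rebuilt library, 1827 without FcCD70 2 and 2505 with both changes, and members then numbered 1 and 5 in the last 2 of these. The count of members in the top 10% by mean rank, 5, was 2 by count without length and 7 with every gene above 0 ranked. The fit had 2 residual degrees of freedom per gene, which limits the size of change that can be detected. Counts of 3 reads or fewer, as for Cd70, allow no comparison.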
